A study of Rattus norvegicus with 12 samples.

Results

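Electrical stimulation of the motor cortex was examined in a 6-OHDA rat model of Parkinson's disease (PD) by comparing 3 stimulated PD rats with 3 PD rats that were not stimulated, 6 of the 12 libraries of the series. Each rat was assigned to its group by its title, and each gave 1 messenger RNA library from motor cortex. The PD rats had received 6-OHDA (6-hydroxydopamine). The stimulated PD rats were 6-OHDA rats in which, per the series' design text, a graphene electrode array lay on the primary motor cortex and was driven wirelessly for 2 weeks, 1 hour daily, at 130 Hz. The other 6 libraries came from 3 control rats and 3 stimulated control rats, which served here for the estimate of spread and as a reference; whether the stimulated controls followed the same schedule is not stated. The titles number the rats within each group, so libraries were taken as separate animals. The sources used here do not give strain, sex, age, hemisphere, lesion size, a sham array in unstimulated rats or the time between the last stimulation and sampling. The labelled tissue was not checked against markers, because the files do not pair gene identifiers with symbols.

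6-OHDA is a toxin that catecholamine neurons take up through their transporters, and it is used to remove dopamine neurons that project from the midbrain to the forebrain. The primary motor cortex lies in the circuit through which the basal ganglia act on movement and receives a sparse dopamine input of its own. High-frequency stimulation is best known from deep brain nuclei, and stimulation of the cortical surface is a less invasive way to reach the same circuit. The comparison asked which transcripts of the stimulated cortex differ between lesioned rats with and without such stimulation.

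Values are CPM (counted reads scaled to a common library total), and log2 differences are between means of log2(CPM + 0.5), which understates the change of low features. A feature is 1 Ensembl rat gene identifier. Of 16534 features, 14985 were tested, those averaging at least 0.5 CPM over the 12 libraries. Libraries held 47165351 to 62082830 counted reads in PD and 45862054 to 52830363 in stimulated PD rats, so 1 read was worth 0.0161 to 0.0218 CPM. Reads of the 10 most abundant features made up 10.5% ± 0.774 of a library in PD and 10.5% ± 1.59 in stimulated PD rats (SD, n = 3), with a difference of -0.0186 percentage points (exact permutation test, two-sided, p = 1). Features below 1 CPM numbered 2825, 2974 and 2976 in PD and 2410, 2603 and 2768 in stimulated PD rats. The groups did not overlap on this measure (difference of means -331, exact permutation test, two-sided, p = 0.1, the smallest that 3 against 3 rats allow).

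PD rats 1 and 3 and stimulated PD rat 3 each had their nearest library, among these 6, in the opposite group. The share of tested features that differed at least 2-fold between 2 libraries measures how far apart they were. PD rat 1 differed 2-fold from PD rat 2 at 12.8% of features and from PD rat 3 at 2.72%. From stimulated PD rat 3 it differed at 1.98%, the smallest share among the 15 pairs of these 6 libraries, and from stimulated PD rats 1 and 2 at 4.28% and 7.78%. Stimulated PD rat 3 in turn differed from PD rat 3 at 2.14%, from stimulated PD rat 1 at 3.05% and from stimulated PD rat 2 at 6.68%. PD rat 3 was thus nearer to stimulated PD rat 3 than to PD rats 1 and 2 (2.72% and 4.48%). PD rat 2 stood farthest out, with 10.2%, 13.8% and 17.6% of features 2-fold apart from stimulated PD rats 3, 1 and 2. PD and stimulated PD rats thus overlapped: pairs from different groups ranged from 1.98% to 17.6%, pairs of PD rats from 2.72% to 12.8% and pairs of stimulated PD rats from 2.83% to 6.68%. The median SD of a feature between rats, on the log2 scale, was 0.285 in PD, 0.137 in stimulated PD and 0.126 in control rats. Whether a difference in lesion, dissection, RNA quality or library batch, or an exchange of labels, goes with these positions was not tested.

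**Figure D1:**
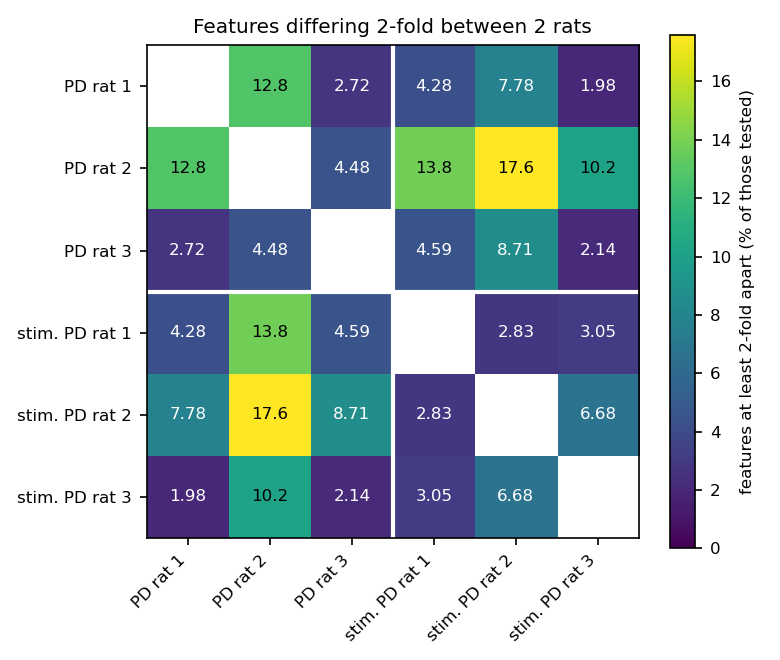
Share of the 14985 tested features (%) that differed at least 2-fold between each pair of the 6 libraries, on the log2(CPM + 0.5) scale; rows and columns are single rats, white lines separate the groups, and colour follows the printed share. PD rat 1 lay nearer to stimulated PD rat 3 (1.98%) than to PD rat 2 (12.8%).

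Counts of features at least 2-fold apart leaned to the higher side in most, though not all, pairs of rats. Stimulated PD rat 2 had 1098, 1961 and 1085 features at least 2-fold higher than PD rats 1, 2 and 3, against 68, 680 and 220 at least 2-fold lower. Stimulated PD rat 1 had 590, 1411 and 527 higher, against 52, 664 and 161 lower. In these 6 pairs the higher features were the majority. For stimulated PD rat 3 the higher features were 194, 756 and 184 and the lower ones 103, 766 and 136, so that against PD rat 2 the lower features were slightly more numerous. The median log2 difference over all features was negative for stimulated PD rat 3 against PD rats 1 and 3 (-0.0072 and -0.047) and positive in the other 7 pairs (0.047 to 0.21).

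By limma (moderated linear models with 1 coefficient per group, all 12 libraries fitted), 0 of the 14985 features (0%) differed between stimulated PD and PD rats at a Benjamini-Hochberg adjusted p under 0.05, and the smallest adjusted p was 0.149. An unadjusted p under 0.05 was found for 2613 features (17.4%), namely 1757 features (11.7% of those tested) with a higher and 856 (5.71%) with a lower level in the stimulated group. The fit shares 1 spread between groups, although features varied most in PD rats (median SD 0.285, against 0.126 to 0.155 in the other groups). This can make the p-values of this comparison too small. With only the 6 libraries fitted, which leaves fewer residual degrees of freedom, 1300 features had such a p. edgeR on the whole reads recovered from the CPM also called 0 features (smallest adjusted p = 0.0771), and DESeq2 called 907, with 548 features higher and 359 lower in the stimulated group. Of these 907, 890 had an unadjusted limma p under 0.05 in the same direction. As the main test called none, no feature is described as changed, and those named or counted from here on are described by their values. In bulk tissue, fewer cells of a type and less RNA per cell cannot be told apart in any of them.

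The sizes involved were moderate. Over all tested features the log2 difference had a median of 0.08, with 5% of features below -0.47 and 5% above 0.80, and its SE had a median of 0.18 (25% of features below 0.14, 25% above 0.24). The estimate was at least 2-fold higher for 497 features and at least 2-fold lower for 38. Among features with an unadjusted p under 0.05 the median log2 difference was 0.63 for the higher and -0.49 for the lower ones.

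The balance between directions followed abundance. Among 3255 features averaging under 5 CPM, 497 (15.3%) were higher and 95 (2.92%) lower at an unadjusted limma p under 0.05. Between 5 and 50 CPM, 917 (12.6%) of 7271 features were higher and 400 (5.50%) lower. At 50 CPM and above the directions were even, with 343 (7.69%) of 4459 features higher and 361 (8.10%) lower. The median log2 difference was 0.16, 0.07 and 0.05 in these 3 classes. This balance rested on scaling: higher features were 67.2% of those with an unadjusted p under 0.05 on the deposited CPM, 47.3% with TMM factors, 45.2% with median-of-ratios factors, 43.7% with quantile-normalized values, 42.7% in edgeR and 40.6% in DESeq2. Over all features the median log2 difference was 0.01 with TMM factors and -0.02 after quantile normalization.

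Leaving out single rats showed how much the comparison depended on them. Without PD rat 1, limma called 2943 features (19.6% of those tested), 1529 higher (10.2%) and 1414 lower (9.44%) in stimulated PD rats at an adjusted p under 0.05. Without stimulated PD rat 3 it called 325 higher (2.17%) and 2 lower (0.0133%). Leaving out any of the other 10 libraries gave 0 calls. Of the 325 higher features found without stimulated PD rat 3, 176 were also among the 1529 found without PD rat 1, which is 54.2% of the former and 11.5% of the latter. Both rats are those that lay closest to the opposite group, so leaving either out separates the groups by the outcome itself, and these counts are no estimate of a stimulation effect. With only the 6 PD and stimulated PD libraries fitted, 0 features passed (smallest adjusted p = 0.345), and with PD rat 1 left out of those the smallest adjusted p was 0.0728.

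**Figure D2:**
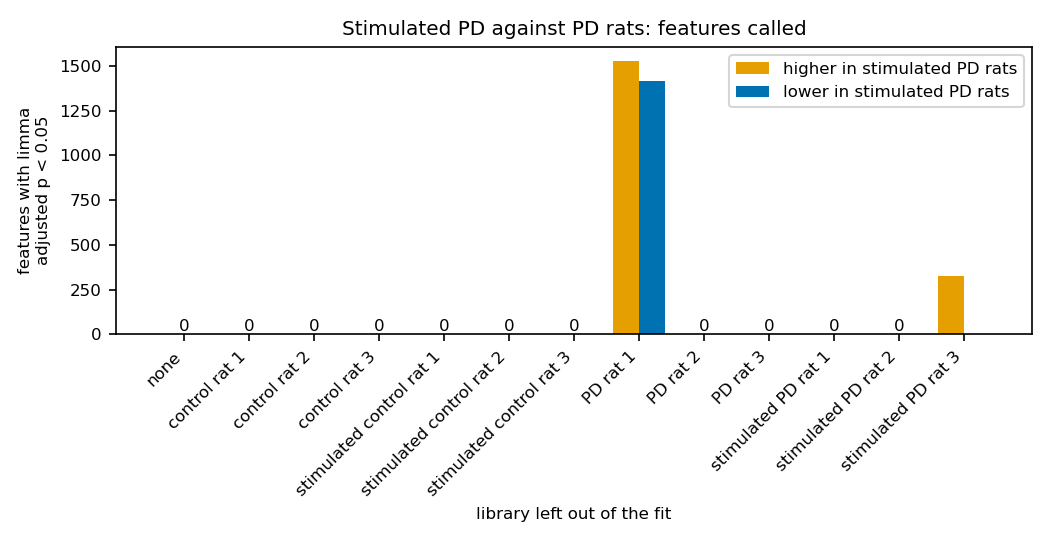
Number of features with a limma adjusted p under 0.05 between stimulated PD and PD rats (bars, linear axis from 0) in the fit of all 12 libraries and in 12 fits that each leave out 1 library. Calls appeared only without PD rat 1 (1529 higher, 1414 lower) and without stimulated PD rat 3 (325 higher, 2 lower).

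Each library was then placed by features that it had not helped to choose. For each of the 6 rats, limma was fitted without it, the features with an unadjusted p under 0.05 were taken, and the rat was scored on each as nearer to the mean of its own group or to that of the other group. Chosen means lie too far apart by selection, and a left-out rat is expected to fall short of its group's mean.

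Stimulated PD rat 2 fell on its own side at 94.1% of 735 higher and 84.4% of 403 lower features. Stimulated PD rat 1 did so at 82.4% of 1122 higher and 73.0% of 555 lower features. PD rat 2 fell with the PD rats at 84.1% of 961 higher and 65.6% of 401 lower features, and PD rat 3 at 64.9% of 1602 and 69.3% of 551. These 4 rats were on the side of their label for most features in both directions. For PD rat 3 the shares were 76.5% of higher and 54.3% of lower features with TMM factors, and 74.4% and 63.6% after quantile normalization. For the rest of these 4 rats they were at least 70.9% under both scalings.

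PD rat 1 was not. Of the 3371 features higher in stimulated PD rats than in PD rats 2 and 3, it fell on the PD side at 750 (22.2%), and of the 2408 lower features at 108 (4.49%). On a scale with the mean of the stimulated PD rats at 0 and that of the other PD rats at 1, its median position was 0.0745 for the higher and -0.0718 for the lower features. Among the features with an adjusted p under 0.05 in that fit, it was on the PD side at 264 of 1529 higher and 38 of 1414 lower ones. These features were chosen with PD rats 2 and 3 alone as the PD group, and PD rat 2 stood farthest out. Over all tested features, PD rat 1 differed 2-fold from PD rat 3 at 2.72%. That was less than from stimulated PD rats 1 and 2 (4.28% and 7.78%) but more than from stimulated PD rat 3 (1.98%).

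Stimulated PD rat 3 was divided. It fell on its own side at 414 of 591 features lower in the other stimulated PD rats (70.1%), but at 647 of 2090 higher ones (31.0%). Of the 325 higher features called without it, it was on the stimulated side at 62 (19.1%). With TMM factors, PD rat 1 was on its own side at 20.7% of higher and 9.95% of lower features and stimulated PD rat 3 at 32.5% and 61.4%, and after quantile normalization at 16.3% and 11.6%, and 35.0% and 56.1%.

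**Figure D3:**
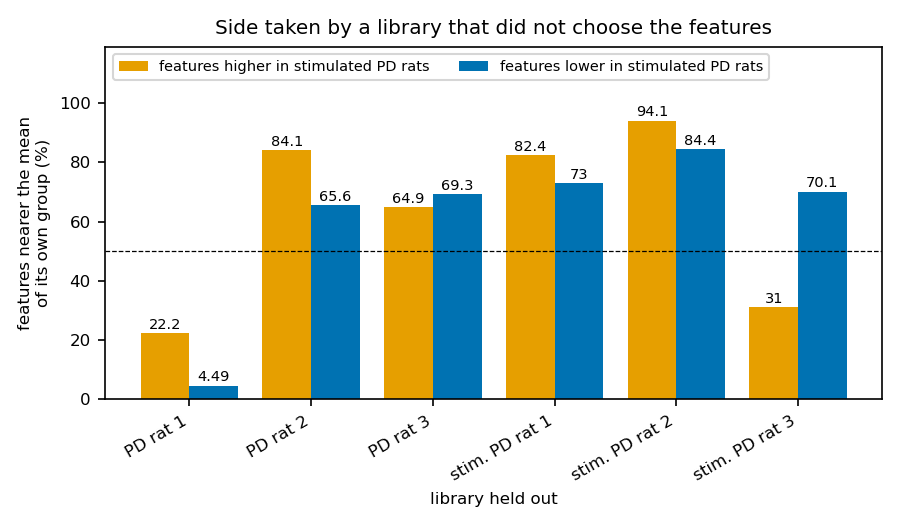
For each of the 6 rats, the share (%) of features on which it lay nearer to the mean of its own group than to that of the other group, for features higher (orange) or lower (blue) in stimulated PD rats at an unadjusted p under 0.05 in a fit without that rat; the dashed line marks 50%. On the features so chosen, PD rat 1 (22.2% and 4.49%) lay mostly with the stimulated PD rats, and stimulated PD rat 3 (31.0% and 70.1%) was divided. The 50% line is not a chance level, because selection sets the chosen means too far apart.

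Features whose 3 stimulated PD libraries did not overlap with the 3 PD libraries numbered 2134 (14.2%), of which 1496 (9.98% of those tested) were higher and 638 (4.26%) lower on the deposited scale. With TMM factors they were 1151 and 1235 of the same 14985 features. In stimulated control against control rats the same counts were 822 (5.49%) and 509 (3.40%) on the deposited scale.

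A stricter view, which does not use a model, asked for features whose lowest stimulated PD library lay at least 2-fold above the highest PD library, or the reverse. There were 75 such higher features (0.501%) and 2 lower ones (0.0133%). TMM factors gave 73 and 2, median-of-ratios factors 73 and 2, and quantile normalization 41 and 5. In stimulated control against control rats, 1 feature (0.00667%) was higher and 1 (0.00667%) lower by this measure. Higher features were the majority under each of these scalings, unlike for the unadjusted p-values. This measure takes ratios of CPM without a pseudocount, which are easily large at low levels, and it was chosen after seeing the data. No general direction is read from this majority.

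The 75 features were mostly low in abundance and lowest in PD rats, where their choice requires them to lie below stimulated PD rats. The median of their mean levels was 0.381 CPM in PD, 3.48 in stimulated PD, 3.45 in control and 3.77 in stimulated control rats. A mean below 5 CPM was found for 62.7% of them, and for 3255 of all 14985 tested features. The mean of the stimulated PD rats lay within the range of the control libraries at 55 of the 75, against 31.2% of all tested features. All 3 stimulated PD libraries lay within that range at only 8 of the 75. Control rats varied more at these features (median SD 0.558, against 0.126 over all features), which widens that range. Features this low in PD rats also passed the filter through the other groups. The share at the 75 is therefore not comparable with that of all features, and no return to control levels is read from it. In 50 of the 75, no PD library reached 1 CPM. The gap between the lowest stimulated PD and the highest PD library had a median of 2.54-fold and reached 14.4-fold.

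Relative to the control mean, the median of the 75 features stood at -1.73, -1.87 and -1.83 on the log2 scale in PD rats 1, 2 and 3, so here PD rat 1 was as low as the others, as the choice of these features requires. In stimulated PD rats 1, 2 and 3 it stood at -0.22, 0.84 and -0.56. Stimulated PD rat 2 had the highest of the 3 levels at 64 of the 75 features, and stimulated PD rat 3 had the lowest at 50. In stimulated control rats the medians were 0.31, 0.07 and 0.20, and in controls 0.53, -0.30 and -0.28. At 73 of the 75, all PD libraries also lay below all control libraries, as they did at 23.3% of all tested features, and 42 were called lower in PD than in control rats by limma (adjusted p under 0.05), as were 4.1% of all tested features. That comparison uses the same PD libraries, for whose low levels the 75 were chosen, so nothing is read from these counts. Without PD rat 1, 45 of the 75 had a limma adjusted p under 0.05 between stimulated PD and PD rats, with all 12 libraries 0 had, edgeR called 0 and DESeq2 called 67. Over all 14985 tested features, limma called 10.2% higher without PD rat 1 and DESeq2 called 548 higher. The 75 were chosen for this same difference in these same libraries, so nothing is read from these counts either.

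The larger sets had a similar shape in 1 direction. For the 1757 features higher in stimulated PD rats at an unadjusted p under 0.05, the median log2 level relative to the control mean was -0.45, -0.82 and -0.48 in PD rats 1, 2 and 3 and 0.09, 0.35 and -0.17 in stimulated PD rats 1, 2 and 3. All PD rats were below all stimulated PD rats on this median. The medians of the controls ran from -0.11 to 0.09, so stimulated PD rat 1 lay at their upper edge, rat 2 above them and rat 3 below them. The mean of the stimulated PD rats was within the range of the 3 control libraries at 700 of these features (39.8%) and the mean of the PD rats at 234 (13.3%), against 31.2% and 29.9% of all tested features. These features were chosen for PD levels below those of stimulated PD rats. Control rats also varied more at them (median SD 0.19, against 0.126 over all features). The shares are therefore no measure of a return to control levels.

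For the 856 lower features the picture differed. PD rats 2 and 3 stood at 0.52 and 0.17 above the control mean, whereas PD rat 1, at -0.25, stood close to stimulated PD rats 1, 2 and 3 at -0.30, -0.38 and -0.34. The mean of the stimulated PD rats was within the control range at 95 of them (11.1%) and that of the PD rats at 256 (29.9%). Over all tested features these shares were 31.2% and 29.9%. The PD mean averages rats whose medians lay on both sides of the control mean, so its share does not place single PD rats at control levels. On this median the stimulated PD rats lay below every control rat, and single features varied more between PD rats (median SD 0.382, against 0.107 in stimulated PD rats). These sets were chosen by the difference between PD and stimulated PD libraries, with the spread taken over all 12 libraries. Their levels in PD and stimulated PD rats are therefore descriptions.

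**Figure D4:**
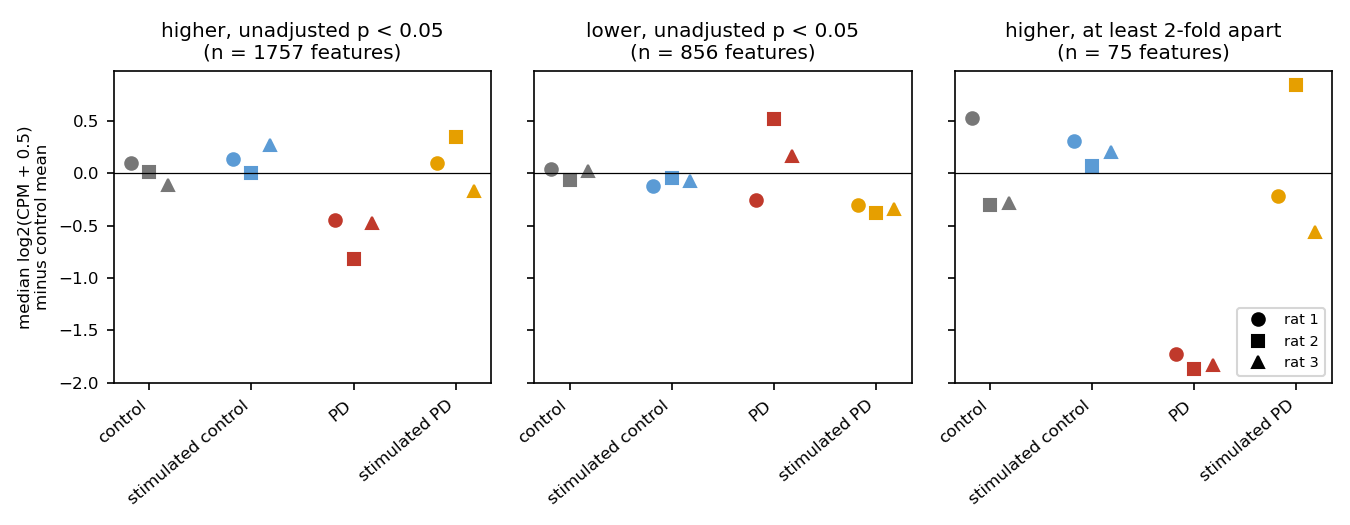
Median over features of log2(CPM + 0.5) minus the control mean (y axis) in each of the 12 libraries. The 3 sets of features were chosen by the difference between stimulated PD and PD rats, those by unadjusted p with a spread taken over all 12 libraries. Symbols give the rat number and colours the group. Among the 75 features at least 2-fold apart, PD rats sat between -1.87 and -1.73 and stimulated PD rats between -0.56 and 0.84.

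Stimulated and unstimulated control rats offer a look at these sets in libraries whose own difference did not choose them. Their spread did enter the p-values that chose the sets, and their levels entered the filter. The stimulation schedule of the stimulated controls is not stated. Stimulated control against control rats gave 0 calls by limma at an adjusted p under 0.05 (smallest adjusted p = 1), and 268 (1.79%) with an unadjusted p under 0.05; edgeR and DESeq2 also called 0. Of the 1757 features higher in stimulated PD rats, 1387 (78.9%) were higher in stimulated control than in control rats too, against 59.0% of all tested features. Of the 856 lower features, 663 were lower there too, and 193 (22.5%) were higher. The differences were small, with a median log2 difference of 0.13 for the former set, -0.08 for the latter and 0.03 over all features. The former share was 75.8% with TMM factors and 73.7% after quantile normalization, against 49.8% and 45.8% of all features, and the latter 20.3% and 22.4%. Leaving out any 1 control or stimulated control rat gave 70.1% to 83.1% for the higher and 18.6% to 29.9% for the lower set. Features move together within a library and are not independent, so no p is given for these shares.

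Whether stimulation acted differently in PD and in control rats was tested as an interaction. By limma 0 features passed (smallest adjusted p = 0.834), with 619 (4.13%) at an unadjusted p under 0.05, edgeR called 0 and DESeq2 called 30. The smallest limma adjusted p was 0.0998 without PD rat 1 and 0.103 without stimulated PD rat 3.

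Single features are given by identifier only. The naming rule asked for a mean of 1 CPM or more in the higher group, an unadjusted limma p under 0.05 and no overlap between the 2 groups. Of the 14985 tested features, 1002 met it with a higher and 358 with a lower level in stimulated PD rats. The 2 with the largest log2 difference in each direction are described. None of the 4 passed after adjustment over all features.

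ENSRNOG00000043451 stood at 0.170, 0.130 and 0.290 CPM in PD rats 1, 2 and 3 and at 2.51, 140 and 5.23 CPM in stimulated PD rats 1, 2 and 3. The groups were at least 8.65-fold apart, and stimulated PD rat 2 was far above the other stimulated rats. Control rats had 18.9, 9.21 and 21.0 CPM and stimulated control rats 18.6, 18.2 and 65.7 CPM, so all PD rats lay below every other library. Its log2 difference was 4.28 (SE 1.08, n = 3 against 3, limma adjusted p = 0.184), and 4.25 without PD rat 1 (limma adjusted p = 0.0420). In control rats the stimulation difference was 0.85 (SE 1.08, limma adjusted p = 1), and the interaction, 3.43 (SE 1.53), had a limma adjusted p of 0.834.

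ENSRNOG00000049829 stood at 0.0212, 0.148 and 1.69 CPM in PD rats 1, 2 and 3, the first of these being 1 read, and at 59.6, 9.22 and 10.9 CPM in stimulated PD rats 1, 2 and 3. The groups were at least 5.45-fold apart. Control rats had 8.74, 1.65 and 2.50 CPM, so PD rat 3 lay among the controls, and stimulated control rat 1 reached 474 CPM beside 2.56 and 7.81 in the other stimulated controls. The log2 difference between stimulated PD and PD rats was 4.38 (SE 1.48, limma adjusted p = 0.239), and the interaction was 1.82 (SE 2.10, limma adjusted p = 0.840).

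ENSRNOG00000043465 had the largest negative difference among the 358 lower features that met the naming rule, -2.74 on the log2 scale (SE 1.01, limma adjusted p = 0.257). It stood at 499, 135 and 248 CPM in PD rats 1, 2 and 3 and at 99.6, 33.6 and 15.9 CPM in stimulated PD rats 1, 2 and 3, at least 1.35-fold apart. Controls had 72.6, 205 and 208 CPM and stimulated controls 496, 21.9 and 41.8 CPM, so the range of each control group reached into both PD groups.

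ENSRNOG00000067725 stood at 115, 84.5 and 78.0 CPM in PD rats 1, 2 and 3 and at 32.8, 21.7 and 13.4 CPM in stimulated PD rats 1, 2 and 3. The groups were at least 2.37-fold apart, with controls between them at 48.1, 56.0 and 63.8 CPM. Stimulated control rat 1, at 265 CPM, was above every other library, and the other stimulated controls had 16.8 and 33.2 CPM. The log2 difference was -2.08 (SE 0.735, limma adjusted p = 0.250), and the interaction was -2.01 (SE 1.04, limma adjusted p = 0.834). At 3 of these 4 features stimulated control rat 1 stood at least 2-fold above the other stimulated controls, and at 2 of them it was the highest library of all.

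**Figure D5:**
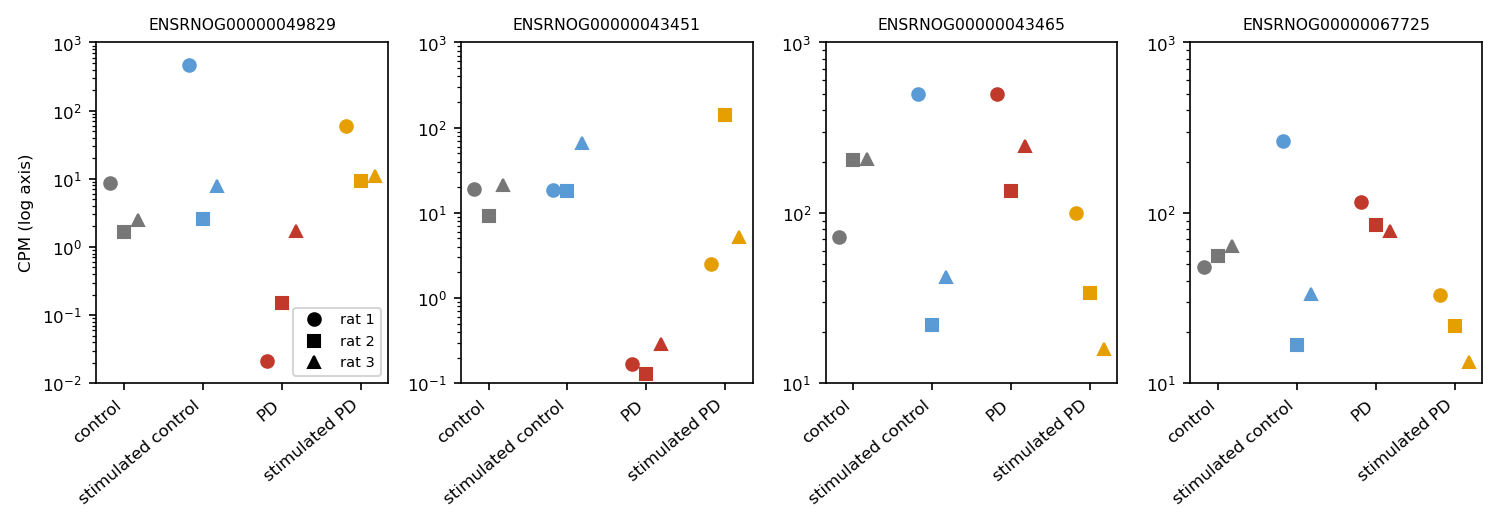
CPM (log axis) of the 4 features named by rule in each of the 12 libraries; symbols give the rat number and colours the group. In ENSRNOG00000043451 the 3 PD rats, at 0.130 to 0.290 CPM, lay below all other libraries, and in ENSRNOG00000067725 they lay at 78.0 to 115 CPM, above all stimulated PD rats.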

How the data were processed

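Total RNA went into stranded mRNA libraries, per the labels' protocols. The submitters' processing notes name Trim Galore, STAR and featureCounts, all without versions, with assembly mRatBN7.2. Annotation release, strand setting and filters: not given in the sources used here. CPM, calculated by the authors, fill the deposited table, and 0 of its columns lacked a sample. Dividing each column by its smallest value gave whole reads for 100% of values (tolerance 0.001 read) and the library totals. Of 16534 identifiers, 0 were matched to a symbol, so the gene and marker lists drawn up for this tissue, and sequences, are not analysed here.

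The test was limma 3.58.1 (R 4.3.3) on log2(CPM + 0.5), with a trended prior variance and 8 residual degrees of freedom, two-sided, with Benjamini-Hochberg adjustment over all 14985 features. edgeR 4.0.16 and DESeq2 1.42.0 on recovered reads, other scalings, pseudocounts, filters and left-out libraries were alternatives. The groups, members and lists were chosen with earlier results of these data known. The naming rule asked for a symbol; without symbols it was applied to identifiers, with 2 per direction. The 2-fold-apart count and the placement of left-out rats were chosen after seeing the data.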

Additional observations from a re-analysis of the deposited data

How the results depend on the processing

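The count of 0 features between stimulated PD and PD rats held under 23 of 26 alternatives (smallest adjusted p from 0.0728 to 0.463); DESeq2 gave 907, and leaving out 1 of the 12 libraries gave 0 to 2943. For the interaction and for stimulated control against control rats it was 0 under the alternatives run, left-out libraries included, apart from 30 for the interaction by DESeq2. Features with an unadjusted p under 0.05 (2613) numbered 1300 with only the 6 libraries of the 2 groups fitted, 4031 with PD rat 1 also left out of those, 1388 with the number in the sample descriptions as a replicate block, and 1138 to 5779 with 1 library left out. Features without overlap (2134) numbered 2651 to 7175 and those at least 2-fold apart (77) numbered 81 to 420 with 1 of the 6 libraries left out, which shortens a group and makes separation easier. The difference in the share of the 10 most abundant features ran from -0.933 to 0.501 percentage points with 1 rat left out.

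The title numbers were not taken to pair the rats. Deviations of same-numbered stimulated PD and PD rats from their group means correlated across features at 0.197, 0.00489 and 0.0459. Those of differently numbered rats correlated at -0.142 to 0.0864. With so few rats, these correlations cannot show whether rats were paired. With the title number as a replicate block, limma called 0 features and 2243 had an unadjusted p under 0.05. Of the 4 named features, whose direction the choice by non-overlapping groups largely fixes, ENSRNOG00000043451 passed in 1 of 26 alternatives, without PD rat 1, and the others in 0. Other depths were not tried.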
